A study of Macaca fascicularis with 10 samples.

Results

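KLF4 and KLF5 were followed on all 10 arrays of a study of cynomolgus monkey (Macaca fascicularis) embryonic stem cells (ESCs). They were taken as every probe set annotated with the symbol KLF4 or KLF5 alone, which gave 2 genes of 14133 with a probe set of their own symbol, and 4 probe sets, 2 for each gene. All 4 were among the 34140 probe sets tested, and each was above the median signal of its array on all 10 arrays. No probe set carried either symbol together with another one. An Affymetrix probe set is a group of short oligonucleotides that report 1 transcript region, and its MAS5 signal is a linear intensity, scaled by the authors to 1 common mean on every array. Signals of different probe sets are not compared, since their binding strength differs.

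The haploid stem cells, PG-haESCs, were parthenogenetic, that is, made from eggs that no sperm had fertilised, and their ploidy label is haploid. Of their 5 arrays, 4 carried the line name MPH1, at passages 8 and 11 under the code M1 and at passages 7 and 9 under the code M2, and 1 was MPH2 at passage 4. The diploid stem cells, ICSI ESCs, came from eggs fertilised by injection of a sperm into the cytoplasm (ICSI). They had 3 arrays, 1 for each line, MES1 at passage 12, MES2 at passage 4 and MES3 at passage 4. Cells labelled diploid female somatic fibroblasts gave 2 arrays of 1 line, MF, at passages 14 and 15. The stem cells of both groups were grown on feeder cells with Y27635 and Thiazovivin, so RNA of feeder cells could be in all 8 ESC samples. Whether arrays of the same line came from separate cultures is not given in the labels, so p-values measure only the spread between these samples, which may be technical. The small number of arrays limits how precise each value can be.

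KLF4 and KLF5 are zinc-finger transcription factors of the Krüppel-like family, which bind GC-rich and CACCC-type promoter and enhancer elements. In mouse embryonic stem cells they act with KLF2 to maintain the naive state of pluripotency, and KLF4 is one of the factors used to reprogram somatic cells to pluripotency. In skin, KLF4 is needed for the barrier of the outer epidermal layers, and KLF5 is best known from proliferating basal epithelial cells of the gut and skin.

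The arrays labelled fibroblast held abundant RNA of epidermal genes, which bears on every comparison with them. KRT1, a keratin of the suprabasal epidermis, had signals of 83.4 to 278 on the ESC arrays, against 53895 and 53774 on the arrays labelled fibroblast. LORICRIN, a protein of the cornified envelope, had 7.75 to 71.6 on the ESC arrays, against 41861 and 43154 on the arrays labelled fibroblast. The summed signal of the measured keratinocyte markers was 8077 to 9899 on PG-haESC arrays, 11145 to 12575 on ICSI ESC arrays and 387970 to 394700 on the arrays labelled fibroblast. Some markers of blood and vessel cells were higher there too, since limma called 4 of 5 leukocyte and 2 of 5 endothelial markers lower in PG-haESCs, and 3 of 5 and 3 of 5 lower in ICSI ESCs. Of all genes, 17.2% were called lower in PG-haESCs and 17% in ICSI ESCs against these arrays. The leukocyte marker LYZ lay under the array median on all 8 ESC arrays, so it was tested only because it was high on these 2 arrays. CD68, a marker of macrophages, and KDR, a receptor of endothelium, were not called. The leukocyte marker sum was 426 to 665 on PG-haESC arrays, 409 to 694 on ICSI ESC arrays and 9581 to 9959 on the arrays labelled fibroblast. The endothelial marker sum was 583 to 922 on PG-haESC arrays, 534 to 1121 on ICSI ESC arrays and 4929 to 5173 on the arrays labelled fibroblast. The collagen gene COL1A1, a defining fibroblast marker, had 143 to 1825 on the ESC arrays, against 8122 and 9202 on the arrays labelled fibroblast. Of the 9 fibroblast markers measured, limma called 1 lower in PG-haESCs, COL1A1, and 2 lower in ICSI ESCs, and FN1, fibronectin, had 9371 to 38342 on the ESC arrays against 20406 and 20490. The median log2 change of the 9 was nonetheless -3.14 in PG-haESCs and -3.19 in ICSI ESCs, and 5 had an unadjusted limma p under 0.05 in each. Under other ways of processing, the number called lower ran from 0 to 7 in both comparisons. The group is therefore called the arrays labelled fibroblast, and how far each cell type contributed to it was not tested. The stem cell label matched its marker POU5F1, which had signals of 17260 to 33612 on the 8 ESC arrays and 40.6 and 80.03 on the arrays labelled fibroblast. NANOG, also a factor of pluripotency, did not tell them apart, with 1107 to 2434 on the ESC arrays against 2083 and 1904.

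KLF4 was above the array median in all groups, lowest and most variable in the stem cells and highest on the arrays labelled fibroblast. Its brighter probe set had signals of 1240, 5011, 1626 and 2460 in MPH1 at passages 8, 11, 7 and 9, and of 1265 in MPH2. The ICSI ESC arrays had 7651 in MES1, 934 in MES2 and 1889 in MES3. The arrays labelled fibroblast had 26417 and 24687. Both stem cell groups held 1 array that stood above the rest, MPH1 at passage 11 and MES1 at passage 12, and the 2 groups overlapped, while neither reached the arrays labelled fibroblast.

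The second KLF4 probe set had signals of 238, 753, 192 and 306 in MPH1 at passages 8, 11, 7 and 9, and of 176 in MPH2. It had 895 in MES1, 151 in MES2 and 233 in MES3, and 3158 and 3344 on the arrays labelled fibroblast. The same 2 stem cell arrays were the highest and MES2 was again the lowest, so both probe sets of KLF4 gave the same picture.

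KLF5 was above the array median in all groups as well, and among the stem cells it was highest in MES2 and MES3. Its brighter probe set had signals of 1123, 2672, 1187 and 1314 in MPH1 at passages 8, 11, 7 and 9, and of 1308 in MPH2. The ICSI ESC arrays had 1427 in MES1, 6385 in MES2 and 3566 in MES3. The arrays labelled fibroblast had 12765 and 13046. Of the PG-haESC arrays 4 lay within a narrow band and MPH1 at passage 11 stood above them, while MES1, the highest of all ESC arrays for KLF4, was the lowest ICSI ESC array for KLF5.

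The second KLF5 probe set had signals of 151, 260.3, 126 and 156 in MPH1 at passages 8, 11, 7 and 9, and of 83.3 in MPH2. It had 235 in MES1, 486 in MES2 and 332 in MES3, and 1173 and 1147 on the arrays labelled fibroblast. The order of the ICSI lines was that of the brighter probe set, and MPH1 at passage 11 was the only PG-haESC array that reached into the ICSI ESC range.

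**Figure D1:**
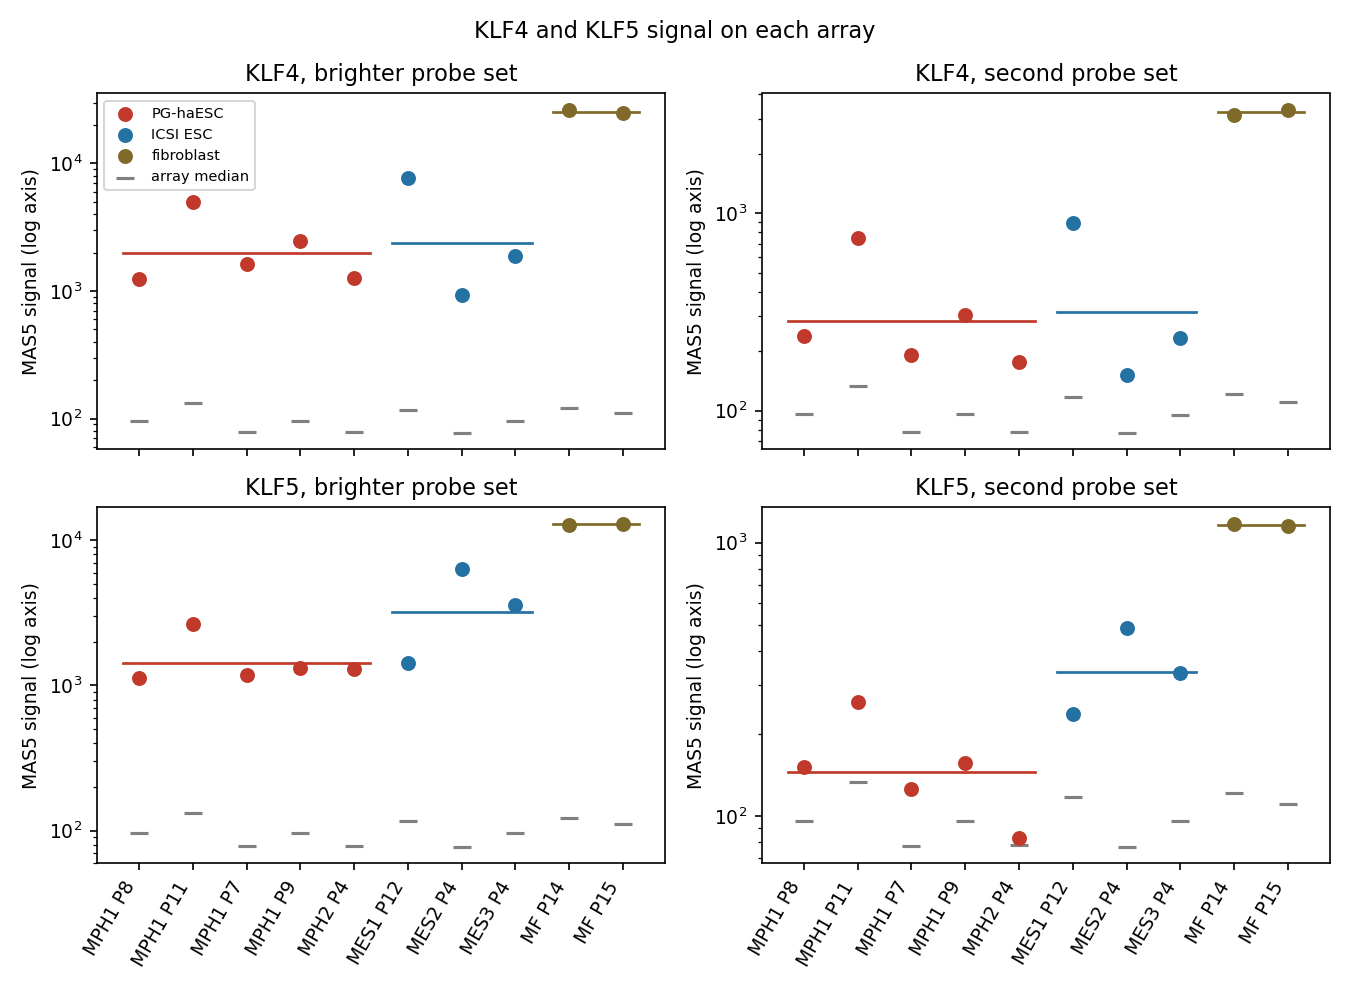
Each panel plots the MAS5 signal of 1 probe set (log axis) on the 10 arrays, with the geometric mean of each group as a line and the median of each array as a grey dash. KLF4 peaks among stem cells on MPH1 passage 11 (5011) and MES1 passage 12 (7651), KLF5 on MES2 (6385), and all 4 probe sets are highest on the arrays labelled fibroblast.

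Setting PG-haESCs against ICSI ESCs asks how haploid stem cells of maternal origin differ from stem cells of fertilised embryos. KLF4 did not pass the test between them. Its brighter probe set averaged 1993 (geometric mean, SD 0.84 log2, n = 5) in PG-haESCs and 2381 (SD 1.54 log2, n = 3) in ICSI ESCs. The log2 change was -0.35 ± 0.68 (SE), with a 95% interval from -1.83 to 1.12 and an adjusted p of 0.98 by limma, the linear model fitted over all probe sets. The interval spans a change of more than 2-fold either way, so these arrays do not exclude a KLF4 difference of that size. The sign itself rested on MES1, since the estimate was 0.54 without that array. The second probe set gave -0.26 ± 0.65 with an adjusted p of 0.99, by the same limma model.

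KLF5 averaged 1437 (SD 0.51 log2, n = 5) in PG-haESCs and 3191 (SD 1.09 log2, n = 3) in ICSI ESCs, and it did not pass the test across all probe sets either. Its log2 change was -1.17 ± 0.47, with a 95% interval from -2.18 to -0.16, an unadjusted p of 0.027 and a limma adjusted p of 0.55. The second probe set averaged 145 (SD 0.59 log2, n = 5) in PG-haESCs and 336 (SD 0.52 log2, n = 3) in ICSI ESCs, with a log2 change of -1.33 ± 0.41 and a limma adjusted p of 0.29. Limma called 0 of the 4 probe sets, of which the 2 of KLF5 had an unadjusted p under 0.05, where the same rule called 0.451% of all probe sets in either direction and 0.0849% as lower. The call on the brighter probe set depended on MES1, without which the log2 change was -1.74 with an adjusted p of 0.036 by limma. The second probe set did not pass without MES1, at -1.53 with an adjusted p of 0.11 by limma.

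The arrays labelled fibroblast served the study as somatic controls, and both genes were lower in PG-haESCs than on them. KLF4 averaged 1993 in PG-haESCs and 25538 on the arrays labelled fibroblast (SD 0.07 log2, n = 2). PG-haESCs were 13.7-fold lower, a log2 change of -3.78 ± 0.82 with a 95% interval from -5.57 to -1.99 (limma, adjusted p = 0.0037). KLF5 averaged 1437 in PG-haESCs and 12905 on the arrays labelled fibroblast (SD 0.02 log2, n = 2). PG-haESCs were 9.11-fold lower, a log2 change of -3.19 ± 0.57 with an interval from -4.41 to -1.96 (limma, adjusted p = 0.00093). The second probe sets gave 12.3-fold lower for KLF4 (limma, adjusted p = 0.0035) and 8.67-fold lower for KLF5 (limma, adjusted p = 0.00041). All 4 probe sets passed, and the same limma rule called 16% of all probe sets lower in this comparison and 33% in either direction. With passage number as a covariate, the change of the brighter KLF4 probe set was -1.57 on the log2 scale with an adjusted p of 0.0502 by limma, just past the threshold of 0.05. The second KLF4 probe set then had -1.49 and still passed (limma, adjusted p = 0.0396), as did both of KLF5.

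ICSI ESCs gave the same direction against the same control arrays, which both comparisons share. KLF4 was 10.7-fold lower in ICSI ESCs, a log2 change of -3.42 ± 0.83 (limma, adjusted p = 0.0071). KLF5 was 4.04-fold lower in ICSI ESCs, a log2 change of -2.02 ± 0.57 (limma, adjusted p = 0.016). The second probe sets were 10.3-fold lower for KLF4 (limma, adjusted p = 0.0059) and 3.45-fold lower for KLF5 (limma, adjusted p = 0.015). The rule called 16.2% of all probe sets lower in this comparison. With passage as a covariate both KLF4 probe sets lost their call, at -1.03 and -1.06 on the log2 scale with adjusted p of 0.20 and 0.15 by limma, and so did the second KLF5 probe set, at -1.55 with 0.118. Here too the passages of the compared groups do not overlap, so passage cannot be told from group. The call of the brighter KLF5 probe set lay close to the threshold, and leaving out either array labelled fibroblast moved its adjusted p to 0.053 or 0.057.

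By geometric mean, every probe set ran from the arrays labelled fibroblast through ICSI ESCs to PG-haESCs. By median, the second KLF4 probe set was 238 in PG-haESCs and 233 in ICSI ESCs, and both KLF4 estimates between these groups were positive without MES1. With no passage covariate, the upper step passed the limma test for all 4 probe sets, where 16.2% of all probe sets were called lower. The lower step did not pass it for any. The lowest array labelled fibroblast was 3.23-fold above the highest ESC array for KLF4 and 2.00-fold above it for KLF5. Fewer cells that express a gene and less of its RNA per cell cannot be told apart in bulk samples such as these.

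**Figure D2:**
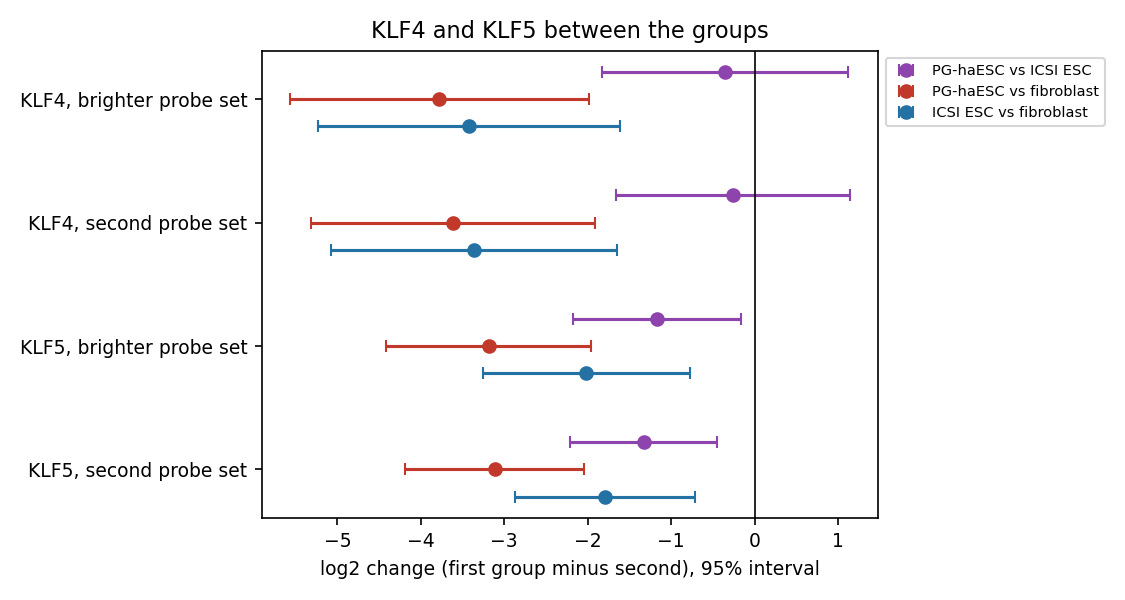
Points are log2 changes of each probe set of KLF4 and KLF5 (first group minus second) and bars their 95% intervals from limma, in 3 comparisons. The intervals against the arrays labelled fibroblast lie below 0 for all 4 probe sets, and the PG-haESC and ICSI ESC intervals of KLF4 include 0, with those of KLF5 just below it before adjustment for all probe sets.

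Both genes varied among the stem cell arrays. Over the 8 ESC arrays KLF4 ranged 8.19-fold for the brighter and 5.91-fold for the second probe set, and KLF5 ranged 5.68-fold and 5.83-fold. Within MPH1 alone the 4 arrays ranged 4.04-fold for KLF4 and 2.38-fold for KLF5. Under the code M1, passage 11 over passage 8 was 4.04-fold for KLF4 and 2.38-fold for KLF5. Under the code M2, passage 9 over passage 7 was 1.51-fold for KLF4 and 1.11-fold for KLF5. In both codes the later passage was higher for both genes, each as a single pair of arrays with no replicate.

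The 2 genes did not share an order of arrays. The 8 ESC arrays are described here without a test. Over them, log2 signals of KLF4 and KLF5 had a Pearson r of -0.18 and a Spearman rho of 0.14 for the brighter probe sets. This r was -0.39 without MPH1 at passage 11 and MES1, the 2 arrays farthest from the KLF4 median. The sign over all 8 arrays depended on the probe sets, since the brighter of KLF4 and the second of KLF5 had r = 0.12. That value was 0.47 without MES2 and MPH2, the 2 arrays farthest from the median of the second KLF5 probe set. The values of -0.39 and 0.47 thus leave out different arrays and cannot be compared. By contrast, the probe sets of KLF4 had r = 0.97 with each other and those of KLF5 r = 0.88. MES1 held 5.76 times the geometric mean of MES2 and MES3 for KLF4, and 0.299 times that mean for KLF5. Arrays of 1 line, and the scaling of each array, are shared by all these values.

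Among stem cells, KLF4 was highest on the 2 arrays of latest passage. A model with group and passage, looked at after the data had been seen, gave a change of 0.31 ± 0.05 log2 per passage for the brighter probe set, which is 1.24-fold per passage. Its unadjusted p was 1.04e-04 and its limma adjusted p 0.0998, so it did not pass the test over all probe sets. The same model called 0.00586% of all probe sets, 2 in all, and 5669 had an unadjusted p under 0.05. The second KLF4 probe set gave 0.29 ± 0.05 with a limma adjusted p of 0.107. KLF5 gave -0.07 ± 0.07 log2 per passage with a limma adjusted p of 0.62, and the sign turned to 0.16 without MES1. The estimate for KLF4 passed without MPH2, at 0.34 log2 per passage with a limma adjusted p of 0.013, and there the model called 2.88% of all probe sets.

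Passage, array brightness and other markers moved together on these arrays. MPH1 at passage 11 and MES1 at passage 12 had the highest spike-in control signals, at 7322 and 5879, against 2498 to 4125 on the other 6 ESC arrays, and they also had the highest array medians. Over the 8 ESC arrays, KLF4 had r = 0.85 with passage number, 0.86 with the array median and 0.86 with the spike-in signal. Without the 2 arrays farthest from the median of each measure these values were 0.51, 0.80 and 0.46, and for the second KLF4 probe set 0.73, 0.90 and 0.82. KLF5 had r = -0.41 with passage number, -0.05 with the array median and -0.15 with the spike-in signal. Its second probe set had -0.04, 0.25 and 0.17. Without the 2 arrays farthest from the median of each measure, the brighter KLF5 probe set had -0.67, 0.19 and -0.47, and the second -0.38, 0.71 and -0.13. The part of array brightness in the KLF4 and KLF5 values was not tested, and it cannot be told apart from passage on these arrays.

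**Figure D3:**
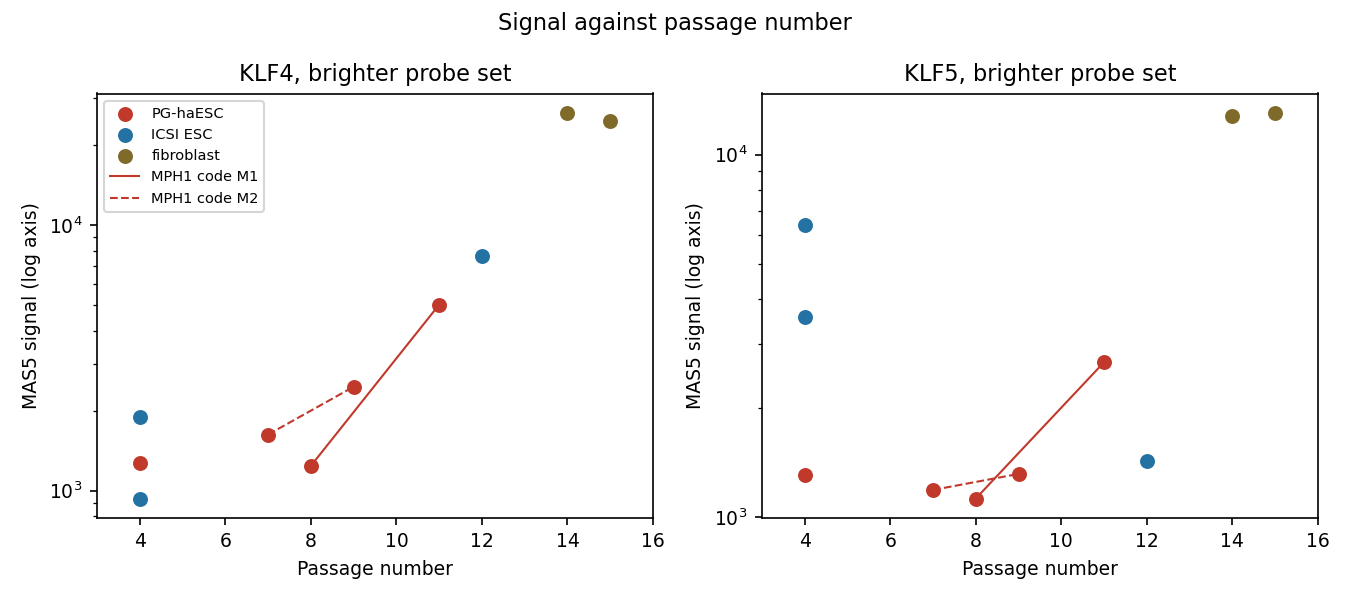
The signal of the brighter probe set (log axis) is plotted against passage number for KLF4 on the left and KLF5 on the right, 1 point per array, with lines joining the MPH1 arrays of 1 code. KLF4 is highest among ESCs at passages 11 and 12, at 5011 and 7651, while KLF5 is highest at passage 4, in MES2.

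KLF4 also moved with fibroblast markers among the stem cell arrays. The mean log2 signal of the 9 fibroblast markers measured, of 12 listed, was 10.1, 11.9, 9.02 and 11.5 in MPH1 at passages 8, 11, 7 and 9, and 11.5 in MPH2. It was 13.2 in MES1, 9.06 in MES2 and 10.7 in MES3, and 13.6 and 13.5 on the arrays labelled fibroblast. MES1 thus lay near the arrays labelled fibroblast on this measure, and it was also the ESC array highest in KLF4. Over the 8 ESC arrays KLF4 had r = 0.82 with this mean, and 0.77 without the 2 arrays farthest from its median. KLF5 had r = -0.28 with it. The feeder cells of the cultures could carry such RNA, and their part in the KLF4 signal was not tested. The summed signal of these markers ranged from 14084 to 67023 on PG-haESC arrays, from 27780 to 168744 on ICSI ESC arrays and from 200329 to 201241 on the arrays labelled fibroblast. Of the 9 markers, limma called 0 between PG-haESCs and ICSI ESCs, and 0 had an unadjusted p under 0.05.

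**Figure D4:**
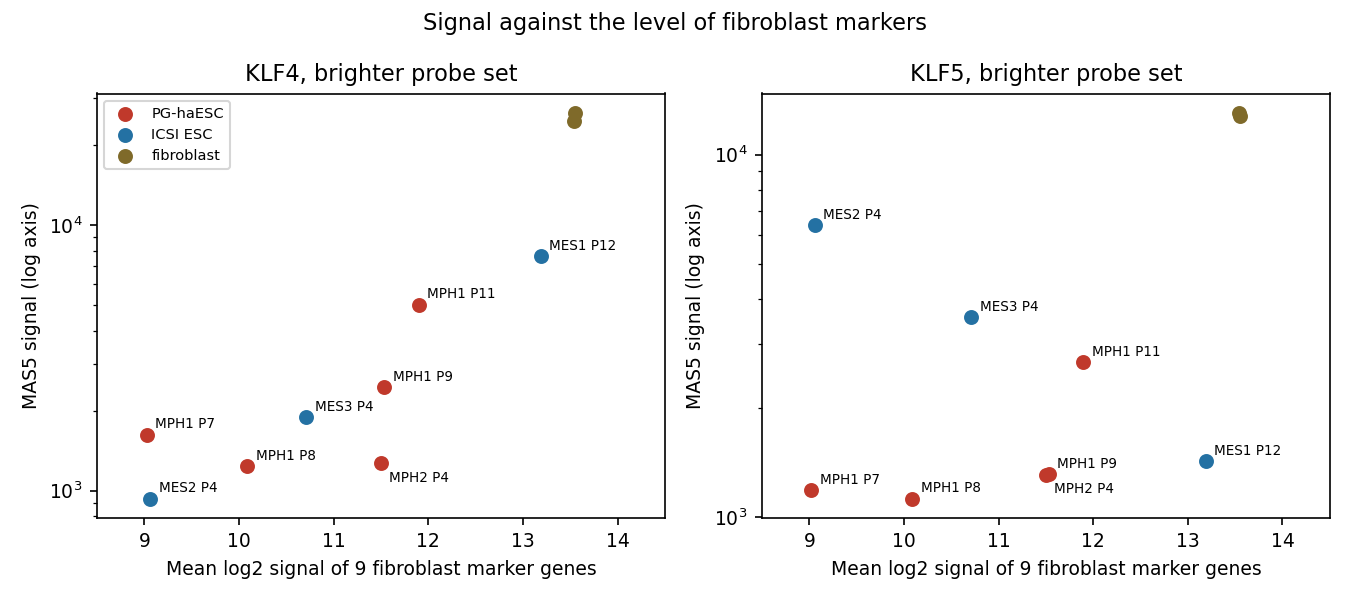
The signal of KLF4 on the left and KLF5 on the right (brighter probe sets, log axis) is plotted against the mean log2 signal of 9 fibroblast marker genes, 1 point per array. KLF4 runs upward with the markers over the 8 ESC arrays (r = 0.82), and KLF5 does not (r = -0.28).

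The other members of the Krüppel-like family give the setting for both genes. Of 16 paralogs listed, 13 had a probe set and 10 were tested. KLF9, KLF16 and KLF18 had no probe set of their own symbol, and KLF1, KLF14 and KLF17 were too dim to test. Of the 10, 6 were lower and 4 not called in PG-haESCs against the arrays labelled fibroblast, with a median log2 change of -1.14 against 0.06 over all 11676 genes. By the same rule 17.2% of all genes were lower and 40.2% were called in either direction. In ICSI ESCs 5 of the 10 were lower against the same arrays, where 17% of all genes were, with a median of -0.997 against 0.08 over all genes.

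KLF13, a broadly expressed repressor and activator of GC-rich promoters, had signals of 704 to 1158 on PG-haESC arrays and 846 to 1192 on ICSI ESC arrays, against 4742 and 4725 on the arrays labelled fibroblast. Its log2 change in PG-haESCs against the arrays labelled fibroblast was -2.36 ± 0.27 (limma, adjusted p = 3.6e-05), and in ICSI ESCs it was -2.24 ± 0.27 (limma, adjusted p = 5.8e-05). KLF8 and KLF3, both repressors that recruit the corepressor CtBP, followed. KLF8 was 3.46-fold lower in PG-haESCs (limma, adjusted p = 0.0017) and KLF3 was 2.95-fold lower (limma, adjusted p = 0.0042), though not with the mean of its probe sets (adjusted p = 0.21). KLF12 was 2.42-fold lower (limma, adjusted p = 0.014) by its brightest probe set, while the mean of its probe sets gave a log2 change of 0.022 with an adjusted p of 0.97.

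KLF2 and KLF11 were named after their values had been seen, as the other paralogs called. KLF2, the third of the factors that act together in mouse naive cells, had signals of 208, 32.7, 169, 231 and 137 on PG-haESC arrays, in the order used above, and of 102, 197 and 122 on ICSI ESC arrays. It had 932 and 613 on the arrays labelled fibroblast. KLF2 was thus lower in PG-haESCs, by -2.54 ± 0.86 log2 (limma, adjusted p = 0.0395), and MPH1 at passage 11, which was high in KLF4 and KLF5, had the lowest KLF2 of all arrays. That signal lay under its array median of 133, and the KLF2 signal of MES1 under its array median of 117. Differences at such low signals were not resolved. KLF11, a repressor that responds to TGF-beta, changed by -0.99 ± 0.34 log2 (limma, adjusted p = 0.0405). Of 24 alternatives, the KLF2 call was lost in 8 and the KLF11 call in 10.

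Between PG-haESCs and ICSI ESCs limma called 0 of the 10 paralogs, and 0 had an unadjusted p under 0.05, where 0.574% of all genes were called in either direction and 0.0685% as lower. KLF7, known for roles in neurons, had a log2 change of -0.47 ± 0.26 (limma, adjusted p = 0.81), KLF8 of 0.30 ± 0.28 (limma, adjusted p = 0.96) and KLF3 of -0.24 ± 0.29 (limma, adjusted p = 0.97).

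**Figure D5:**
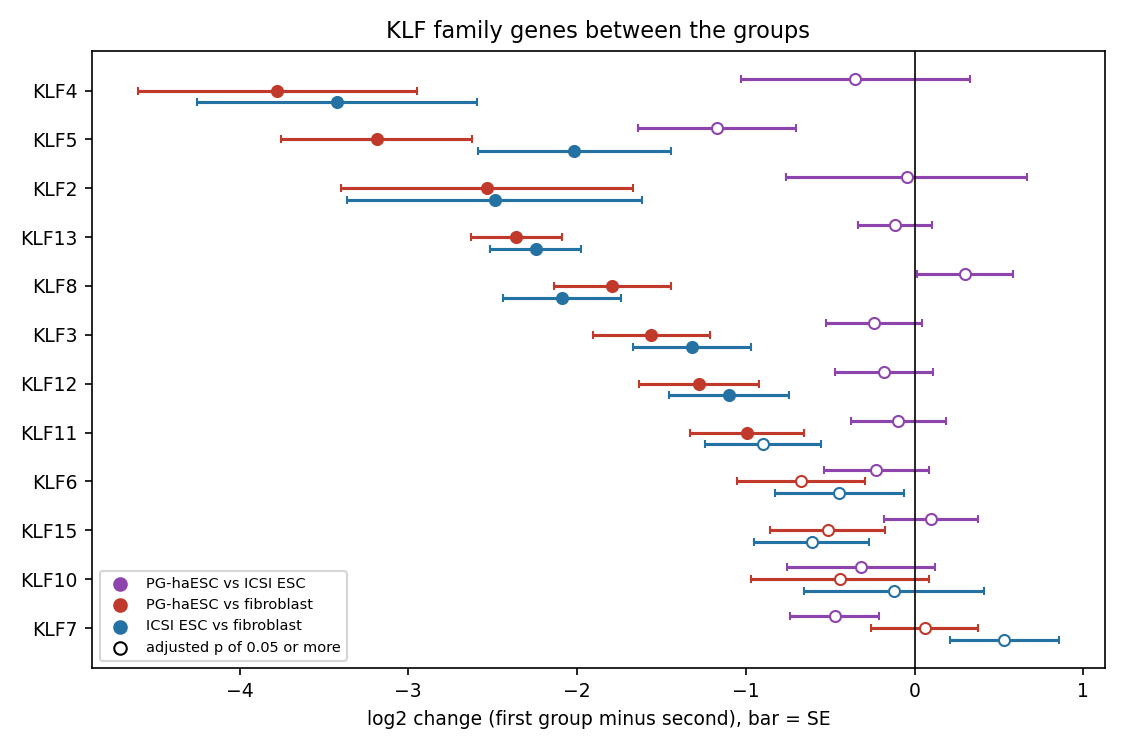
Log2 changes (first group minus second) of KLF4, KLF5 and the 10 tested paralogs are shown in 3 comparisons, with bars for the SE and open points where the adjusted p was 0.05 or more. KLF4, KLF5, KLF2, KLF13, KLF8, KLF3 and KLF12 lie below 0 against the arrays labelled fibroblast in both stem cell groups, the first at -3.78 in PG-haESCs. KLF12 lies at 0.022 there with the mean of its probe sets.

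Most, but not all, reprogramming partners of KLF4 ran the other way. Of 8 measured, 5 were higher, 1 lower and 2 not called in PG-haESCs against the arrays labelled fibroblast, where 23% of all genes were higher. The 2 not called were NANOG and MYC. NANOG, a core factor of pluripotency, had 1107 to 2342 on PG-haESC arrays against 2083 and 1904 on the arrays labelled fibroblast. MYC had 3231 to 6453 against 3840 and 3913. POU5F1, the central factor of pluripotency, was at least 227-fold higher in PG-haESCs, SOX2, its partner, at least 120-fold, and LIN28B, an RNA-binding protein that blocks let-7 maturation, at least 71.1-fold. These 3 folds are lower bounds, since the arrays labelled fibroblast lay below their array medians and were set to them. SALL4, a zinc-finger factor of stem cells, had 2611 to 4571 on PG-haESC arrays, against 59.4 and 114 on the arrays labelled fibroblast, of which the first lay under its array median. With that signal set to the array median, its log2 change was 4.91 (limma, adjusted p = 1.6e-08). MYCL, a relative of MYC named because it was the single partner called lower, had signals of 641 to 816 on PG-haESC arrays against 1444 and 1327 on the arrays labelled fibroblast. Between PG-haESCs and ICSI ESCs limma called 0 of the 8, 1 of which had an unadjusted p under 0.05, and SOX2 had a log2 change of 0.43 ± 0.22 (limma, adjusted p = 0.76).

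Of the other genes known from naive pluripotency, 18 of 24 had a probe set and 13 were tested. In PG-haESCs 4 were higher, 2 lower and 7 not called against the arrays labelled fibroblast, with a median log2 change of 1.22, or -0.09 when signals under the array median were set to it. By the same rule 23% of all genes were higher, 17.2% lower and 40.2% called in either direction, near the shares of this list. The median over all genes was 0.06, or -0.09 with that setting. The 2 lower ones were KLF2 and TFAP2C, a factor of naive human cells, trophoblast and epidermis. DPPA4, a chromatin protein of stem cells, was at least 30.5-fold higher in PG-haESCs, and PRDM14, a repressor that protects pluripotency, at least 21.7-fold. ZFP42, also called REX1, was at least 9.29-fold higher and the nuclear receptor NR5A2 at least 3.87-fold. Between PG-haESCs and ICSI ESCs limma called 0 of the 13, and 0 had an unadjusted p under 0.05. TFCP2L1, ESRRB and DPPA3 had no probe set of their own symbol, and DNMT3L, SUSD2 and KLF17 were too dim to test, so part of the naive programme was not measured.

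Epidermal genes were lower in the stem cells together with KLF4 and KLF5. Of 20 tested genes of epidermal differentiation 19 were lower and 1 not called in PG-haESCs against the arrays labelled fibroblast, where 17.2% of all genes were lower, with a median log2 change of -6.35, or -5.41 with signals under the array median set to it. In ICSI ESCs 18 of the 20 were lower, where 17% of all genes were. KRT10, the partner of KRT1, was 17.5-fold lower in PG-haESCs (log2 change -4.13 ± 0.19, limma, adjusted p = 4.1e-08). KRT1 was 360-fold lower (limma, adjusted p = 1.2e-07) and CLDN1, a tight junction claudin, was 100.4-fold lower (limma, adjusted p = 2.6e-07). LORICRIN, which KLF4 is known to act on in skin, fell by at least 451-fold in PG-haESCs.

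Of 12 tested epidermal transcription factors 9 were lower and 3 not called in PG-haESCs, with a median log2 change of -3.37, and 8 were lower in ICSI ESCs, against the same 17.2% and 17% of all genes. GRHL1, a grainyhead factor of the skin barrier, was 38.9-fold lower in PG-haESCs (log2 change -5.28 ± 0.43, limma, adjusted p = 2.9e-06). CEBPA was 39.5-fold lower (limma, adjusted p = 4.8e-05) and OVOL1 8.93-fold (limma, adjusted p = 1.0e-04). ZNF750, a factor that works with KLF4 in human keratinocytes, had 8.47 to 112 on PG-haESC arrays, 4 of 5 of them under their array median, against 6775 and 7741 on the arrays labelled fibroblast. With signals under the array median set to it, its log2 change was -6.14 (limma, adjusted p = 3.5e-08). The basal layer was thinly covered, with 3 of 9 genes tested. TP63, the master factor of that layer, had signals of 74.0 to 242 on PG-haESC arrays and 46.9 to 80.9 on ICSI ESC arrays, against 14270 and 14624 on the arrays labelled fibroblast. ITGB4, an integrin of hemidesmosomes, had 30.7 to 126 on PG-haESC arrays, 4 of 5 of them under their array median, against 607 and 848 on the arrays labelled fibroblast. It was called lower in PG-haESCs (limma, adjusted p = 0.0030), but not with the mean of its probe sets (adjusted p = 0.11), and the third, ITGA6, was not called. Between PG-haESCs and ICSI ESCs limma called none of these epidermal genes. An unadjusted p under 0.05 was found for 2 of the 20 differentiation genes, 2 of the 12 factors and 0 of the 3 basal genes, and TP63 had a log2 change of 0.80 ± 0.47 (limma, adjusted p = 0.84).

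KLF4 and KLF5 also respond to serum and stress, so immediate early genes were read beside them. Of 10 tested, 1 was higher, 4 lower and 5 not called in PG-haESCs against the arrays labelled fibroblast. DUSP1, a phosphatase of MAP kinases, was 10.5-fold lower (limma, adjusted p = 1.0e-04), FOS 9.26-fold (limma, adjusted p = 0.0067) and ZFP36, which destabilises mRNA, 5.65-fold (limma, adjusted p = 0.0047). ATF3, a stress factor, was 4.50-fold higher by its brightest probe set (limma, adjusted p = 0.00071), and the mean of its probe sets gave a log2 change of 0.48 with an adjusted p of 0.39. The 5 called of 10 compare with 40.2% of all genes called in either direction. Between PG-haESCs and ICSI ESCs limma called 0 of 10, with 2 at an unadjusted p under 0.05, DUSP1 having a log2 change of -1.04 ± 0.37 (limma, adjusted p = 0.44) and ATF3 of -0.98 ± 0.31 (limma, adjusted p = 0.31). Over the 8 ESC arrays the mean log2 signal of these genes had r = 0.45 with KLF4 and 0.36 with KLF5, and -0.57 and 0.70 without MPH1 at passage 8 and MES1, the arrays farthest from its median.

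Genes for proteins that modify KLF4 or KLF5 protein went both ways. Of 10 tested, 2 were higher, 1 lower and 7 not called in PG-haESCs against the arrays labelled fibroblast, with a median log2 change of 0.17 against 0.06 over all genes, of which 40.2% were called. FBXW7, a ubiquitin ligase subunit that targets KLF5, was 2.97-fold lower in PG-haESCs (limma, adjusted p = 0.00047). ATXN3, a deubiquitinase that acts on KLF4, was 2.86-fold higher (limma, adjusted p = 0.0047), and SMURF2, a ubiquitin ligase, was 1.70-fold higher (limma, adjusted p = 0.022). The SMURF2 call was lost in 7 of 24 alternatives, among them leaving out either array labelled fibroblast (adjusted p = 0.076 and 0.065). In PG-haESCs against ICSI ESCs limma called 0 of 10, and SMURF2, the only one with an unadjusted p under 0.05, had a log2 change of -0.51 ± 0.19 (limma, adjusted p = 0.47).

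Of 9 tested genes reported as targets of KLF4 or KLF5 in other systems, 2 were higher, 1 lower and 6 not called in PG-haESCs against the arrays labelled fibroblast, with a median log2 change of 0.03. Over all genes 40.2% were called in either direction and the median was 0.06, so the list lay near both. ODC1, the first enzyme of polyamine synthesis, was 5.62-fold higher in PG-haESCs (limma, adjusted p = 8.1e-06) and MYH10, a non-muscle myosin, 6.53-fold higher (limma, adjusted p = 7.8e-05). FGFBP1, a secreted FGF carrier of epithelia, fell by at least 134-fold in PG-haESCs. In PG-haESCs against ICSI ESCs limma called 0 of the 9, of which 1 had an unadjusted p under 0.05.

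Genes with the pattern most like each member were sought over the 8 ESC arrays by Pearson r of log2 signal among 8129 genes above the array median on all 8, as a description. For KLF4 they were SUMF2 (r = 0.98), BDNF (0.97), MIPEP (0.97), PRR7 (0.96) and ARNTL (0.96). Without MPH1 at passage 11 and MES1 these values lay between 0.90 and 0.94. BDNF, a neurotrophin, had signals of 223 to 2275 on the ESC arrays and 255 and 242 on the arrays labelled fibroblast, so it did not share the high level of KLF4 there. ARNTL, a clock factor, had 190 to 729 on the ESC arrays and 1427 and 1564 on the arrays labelled fibroblast, where it was high like KLF4.

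For KLF5 the nearest were PRAG1 (r = 0.96), PHF24 (0.95), TKFC (0.94), PCDH11X (0.94) and WDR5 (0.94). Without MES2 and MES3, the ICSI ESC arrays highest in KLF5, they had r = 0.84, 0.75, 0.59, 0.84 and 0.60, so the likeness rested in good part on those 2 arrays for TKFC and WDR5. WDR5, a subunit of histone methyltransferases, had 1058 to 2215 on the 8 ESC arrays and 555 and 603 on the arrays labelled fibroblast.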

How the data were processed

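RNA had been extracted with TRIZOL and labelled with the 3' IVT Express kit, per the labels' protocols, and hybridised to Affymetrix Rhesus Macaque arrays, 1 per sample. The deposited signal is an intensity on a linear scale, computed by the authors with MAS5, per the submitters' processing notes. The release of MAS5 and a genome build are not given in the sources used here. With the top and bottom 2% of probe sets trimmed off, the mean rounded to 500 on all 10 arrays, so values are relative to each array's total. Array medians ran from 76.8 to 133, and no detection calls were used.

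Gene symbols came from the platform annotation, in which 24969 of 52865 probe sets had 1 symbol, 361 several and 27535 none. After 158 control probe sets were left out, 34140 above their array's median on at least 2 arrays were tested on the log2 scale with limma 3.58.1 in R 4.3.3. A probe set high only on the 2 arrays labelled fibroblast also entered this way, so counts of genes called lower against them are in part set by this filter. The model held all 10 arrays, group means, the cell line as a random block (correlation 0.29) and a variance trend. Tests were two-sided. The Benjamini-Hochberg adjustment covered all 34140 probe sets, and a call needs an adjusted p under 0.05. Because the model weights arrays by line, fitted changes can depart from ratios of group means. A gene was represented by its brightest probe set. Where a whole group lay under its array medians, the fold is a lower bound, taken with those signals set to the array median. The method was tested on simulated data.

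KLF4, KLF5, the gene lists and the tests were chosen with earlier results of these data known. The text names all KLF4 and KLF5 probe sets, up to 4 genes of each list with the smallest p in PG-haESCs against each other group, up to 2 of each marker list, and the 5 genes most like each member. Alternatives were other handling of line and code, quantile normalization, centring on medians, adding 32 before log2, other filters, no variance trend, passage as a covariate, the mean of a gene's probe sets, only the groups compared, signals under the array median set to it and leaving out each array. Leaving out the 2 arrays of highest spike-in signal and the change per passage were added after seeing the data. Python 3.11.15 with matplotlib 3.10.9 made the figures. Sequences of the probes and proteins are not used here.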

Additional observations from a re-analysis of the deposited data

Results flagged for a closer look

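A check of single samples, which by chance picks out about 1 in 20 groups, needs at least 4 arrays. Only the 5 PG-haESC arrays could therefore be checked, and ICSI ESCs and the arrays labelled fibroblast were not. It was run on 44 groups of values and picked 5. In 4 of them the sample was MPH1 at passage 11, the array with the highest spike-in signal. KLF5 had its highest PG-haESC signal there, 2672 against 1314 on the nearest array, a gap of 0.819 of the group's range. KLF2 had its lowest signal there, 32.7 against 137 on the nearest array, a gap of 0.732 of the range, though the 32.7 lay under the array median of 133. KRT1 had its highest PG-haESC signal there, 278 against 149, a gap of 0.715. MYH10 had its lowest PG-haESC signal there, 1859 against 3393, a gap of 0.928. ZFP42 had its lowest PG-haESC signal in MPH2, 361 against 1159 on the nearest array, a gap of 0.711.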

How the results depend on the processing

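Each comparison was repeated under up to 24 alternatives, 23 planned and 1 added after seeing the data. KLF5 in PG-haESCs against the arrays labelled fibroblast kept its direction and passed in all 24, with log2 changes from -3.70 to -2.86. KLF4 in that comparison ran from -4.07 to -1.57 and passed in all but 1, passage as a covariate (-1.57, adjusted p = 0.0502), and in ICSI ESCs against the same arrays that setting gave -1.03 (adjusted p = 0.20). KLF5 in ICSI ESCs against the arrays labelled fibroblast was not called with arrays averaged per cell line (-2.02, adjusted p = 0.069) or with no variance trend (-2.02, adjusted p = 0.0501), and leaving out each array gave -2.52 to -1.44. Between PG-haESCs and ICSI ESCs, KLF4 ran from -1.02 to 0.54 when each array was left out, positive without MES1, and was 0.22 without the 2 arrays of highest spike-in signal. Its second probe set ran from -0.78 to 0.55 and was 0.21. KLF5 ran from -1.74 to -0.67 there, and without those 2 arrays it was -1.95 and passed (adjusted p = 0.0065). The causes of these moves were not tested. Change per passage of KLF5 ran from -0.17 to 0.16 and of its second probe set from -0.037 to 0.23, the second also being -0.050 with centring. KLF4 passed there with centring (0.23, adjusted p = 0.043), where 4.9% of probe sets were called. KLF12 was 0.022 with the mean of its probe sets, was not called without the array labelled fibroblast of passage 14 (adjusted p = 0.069), and KLF3 with that mean lost its call (-0.48, adjusted p = 0.21). Averaging arrays per line and passage as a covariate each ended the calls of ZFP42 (adjusted p = 0.12 and 0.14) and ATXN3 (adjusted p = 0.056 and 0.091), and centring that of FBXW7 (adjusted p = 0.052). Between the stem cell groups, DUSP1 passed without MPH2 (-1.51, adjusted p = 0.031) and ATF3 without the 2 arrays of highest spike-in signal (-1.09, adjusted p = 0.047). Paralogs called lower numbered 2 to 6 in both fibroblast comparisons. Probe sets called in PG-haESCs against ICSI ESCs ran from 0 to 353 higher and 4 to 136 lower, against 125 and 29. Centring on array medians shifted the median of all probe sets from -0.09 to 0.24 log2 in PG-haESCs against the arrays labelled fibroblast. No paired analysis was possible because only the titles of the arrays labelled fibroblast carry replicate numbers. The fit of only the groups compared could not be run for ICSI ESCs against the arrays labelled fibroblast, since no line correlation could be estimated. With 2 to 5 arrays a group and no detection calls, small changes and low signals were not resolved.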
